A study of Homo sapiens with 6 samples.

Results

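The genes described here are 34 genes of protein folding and quality control in the endoplasmic reticulum (ER): luminal chaperones, disulfide isomerases, the machinery of ER-associated degradation (ERAD) and the sensors of ER stress. They were chosen by gene symbol, and their probe sets were found among the 18132 genes annotated on the array. Of the 34, 32 were tested, and DNAJC3 and ERO1B were too dim on all 6 arrays to be tested. Every HSPA5 probe set is reported, and each other gene is represented by its brightest probe set.

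Total RNA came from SH-SY5Y, an established human line of sympathetic neuroblast origin, grown in equal parts of MEM and F12 with 10% serum. The control group is 3 untreated samples, and the manganese group is 3 samples exposed to 100 µM manganese (MNCL in the sample titles) for 24 h, a dose the labels give as a fraction of the lethal concentration. The labels call the arrays of each group biological replicates 1 to 3 and name no other agent and no genetic change; where the replicates do not stem from separate cultures, p-values measure only the spread between these samples. Every result is for 1 cell line. The comparison asks how transcript levels differ between exposed and untreated cells. The authors deposited log2 expression values made with RMA, so a difference of 1 is a 2-fold difference, and levels of different genes are not compared.

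Proteins that enter the secretory pathway are folded in the ER by chaperones of the Hsp70, Hsp90 and lectin families, while disulfide isomerases form and rearrange their disulfide bonds. Proteins that fail to fold are sent back to the cytosol and degraded by the proteasome, which is ERAD. When unfolded proteins accumulate, the membrane sensors IRE1 (gene ERN1), ATF6 and PERK (gene EIF2AK3) start the unfolded protein response. IRE1 splices the mRNA of the transcription factor XBP1, ATF6 is cut in the Golgi into a transcription factor, and both factors induce chaperone and ERAD genes, whereas PERK slows translation and favours that of ATF4. Manganese is an essential cofactor of Golgi and ER enzymes and is toxic to the brain in excess.

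Control 1 stood apart from the other arrays, at -39.5 on the first principal component (58.5% of the variance) against -6.69 to 19.0 for the others. Spike-in RNA with a poly(A) tail, read by 12 probe sets, averaged 6.14 and 5.81 in control 1 and control 3, but 7.79 in control 2 and 7.80 to 7.91 in the manganese arrays. Their part in the results was not tested, and the difference from control 2 alone, a single array with no spread of its own, is given beside the main values. All 9 measured neuroblast markers were above the filter, which keeps probe sets above the 40th percentile of at least 3 arrays, with mean levels of 10.97 to 11.10 in controls and 10.83 to 10.89 in manganese. The means of mesenchymal markers (5.15 to 5.37 in controls and 5.24 to 5.31 in manganese) overlapped between groups. So did those of immune markers (4.05 to 4.15 and 4.13 to 4.28). Epithelial markers averaged 4.71 to 4.99 and 5.00 to 5.12. The means did not overlap for neuroblast markers (manganese lower) or for epithelial markers (manganese higher), and the cause was not tested. Of these further markers, 6 of 9 mesenchymal, 3 of 6 immune and 3 of 5 epithelial ones were above the filter. COL3A1, CD44, LUM, PTPRC, CD14, LYZ, EPCAM and CDH1 were below the filter.

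HSPA5 (BiP), the main Hsp70 chaperone of the ER, was lower in manganese than in control cells. Its brightest probe set read 10.26, 9.53 and 9.50 in controls 1 to 3 and 8.66, 9.02 and 8.52 in manganese 1 to 3. The groups did not overlap, control 1 was the highest array and manganese 3 the lowest. The means were 9.76 ± 0.43 and 8.73 ± 0.26 (SD, n = 3), a log2 difference of -1.03 (SE 0.23, 95% interval -1.55 to -0.51), so the manganese level was 48.9% of control. The adjusted p over 13407 genes was 0.184 by limma (unadjusted 0.00185), which did not pass the threshold of 0.05. Against control 2 alone the difference was -0.80, and without control 1 it was -0.78. With arrays centred on housekeeping genes HSPA5 was past the threshold (-1.02, limma adjusted p 0.000734). That fit called 303 genes (145 higher, 158 lower) against 19 (18 higher, 1 lower) without that centring. The limma adjusted p of HSPA5 was 0.00375 with array weights, 0.300 with the replicate block and 0.680 without manganese 1, its highest. Fewer transcript copies per cell and fewer cells that express a gene cannot be told apart in such bulk RNA.

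The other HSPA5 probe sets gave differences of the same sign. The second brightest read 7.96, 7.19 and 7.22 in controls and 6.33, 6.57 and 5.90 in manganese, a difference of -1.20. The third read 5.68, 4.66 and 4.83 against 4.58, 4.44 and 4.40, and its difference was -0.59, or -0.19 against control 2. Manganese 2 was the highest manganese array in the brighter pair and control 1 the highest array in all 3. A further pair of probe sets differed by -0.57 and -0.39, but both lay above the 40th percentile on the control arrays only, so they passed the filter through the group in which they were high. The sixth was below the filter (difference -0.18, groups overlapping). Groups did not overlap for the 3 brightest, whose passing did not rest on 1 group, and 9.53% of all 27411 passing probe sets with 1 gene had non-overlapping groups with manganese lower. None of the 5 above the filter passed the threshold over all probe sets, with limma adjusted p of 0.178 to 0.389, and the background was 0.0839% past that threshold and 7.07% lower at an unadjusted p under 0.05.

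**Figure D1:**
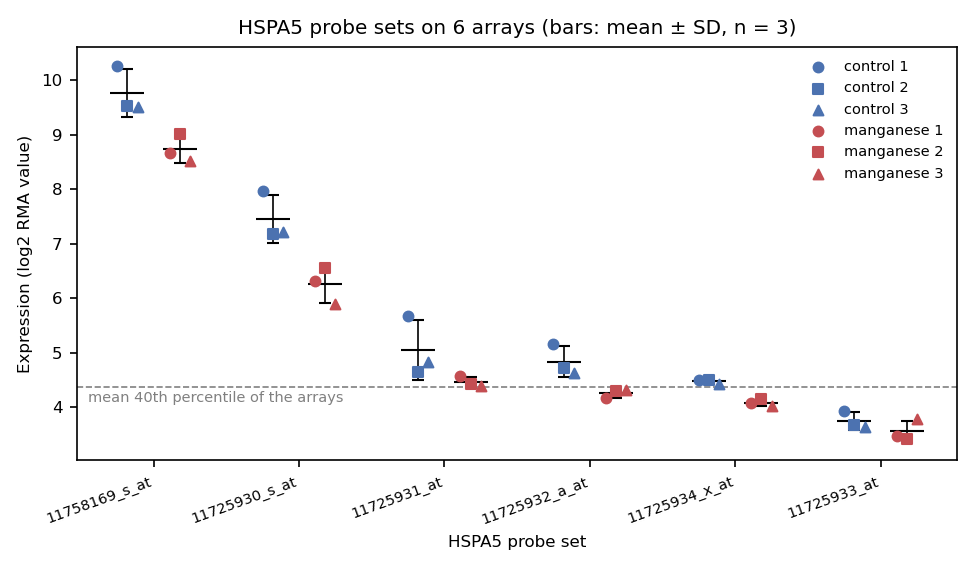
Log2 RMA values of the 6 HSPA5 probe sets (x axis, brightest first) on the 3 control arrays (blue) and the 3 manganese arrays (red), with group means and SD as black bars and the mean 40th percentile of the arrays as a dashed line. The brightest probe set lies between 9.50 and 10.26 in controls and between 8.52 and 9.02 in manganese, and the groups overlap only in the dimmest probe set.

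HSPA5 is the textbook target of the unfolded protein response, and its promoter is shown because it holds the element through which the response is known to act. The 150 bases before the annotated start lie at chr9:125241344-125241493 on the minus strand of GRCh38.p14 (RefSeq). They hold 1 exact match to the letters of the ER stress element, in capitals, 66 bases before the start.
HSPA5: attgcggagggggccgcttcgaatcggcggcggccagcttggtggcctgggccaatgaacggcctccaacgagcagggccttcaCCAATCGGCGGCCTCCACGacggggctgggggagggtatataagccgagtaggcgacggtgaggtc
The element was searched on both strands as CCAAT, 9 bases of any kind, then CCACG, and the match above has no mismatch. Copies with more than 1 mismatch to these letters are not marked.

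Over the 32 tested genes, 0 passed the threshold in limma, as against 19 of all 13407 genes (0.142%), of which 18 were higher (0.134%) and 1 lower (0.00746%). At an unadjusted p under 0.05 there were 8 of the 32, of which 7 were lower (HSPA5, HYOU1, PDIA3, HSP90B1, ATF6, PDIA4 and MANF) and 1 was higher (DERL2). The background at that level was 6.85% of genes lower and 5.97% higher (12.8% in all). Groups did not overlap for 10 of the 32 (background 19.8%), 7 with manganese lower (background 9.26%) and 3 with manganese higher (background 10.5%). The median difference of the 32 was -0.08, beside 0.02 for all genes tested. Negative differences were seen in 19 of the 32, and in 6148 of all 13407 genes (45.9%). Against control 2 alone the median was 0.0048 and 15 were negative, beside 6486 of all 13407 genes. Without control 1 the median was -0.01. With median centring, which called 50 of all genes (38 higher, 12 lower), 0 of the 32 passed.

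Control 1 was the highest of the 6 arrays for 14 of the 32 genes (43.8%), as against 27.9% of all genes tested. It was the lowest for 8, as against 37.2% of all genes. Manganese 3 was the highest for 0 (12.6% of all genes) and the lowest for 8 (12.2% of all genes). CANX, PDIA6, MBTPS1 and EIF2AK3 were among the genes highest on control 1, and in each of them controls 2 and 3 lay near the manganese arrays.

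**Figure D2:**
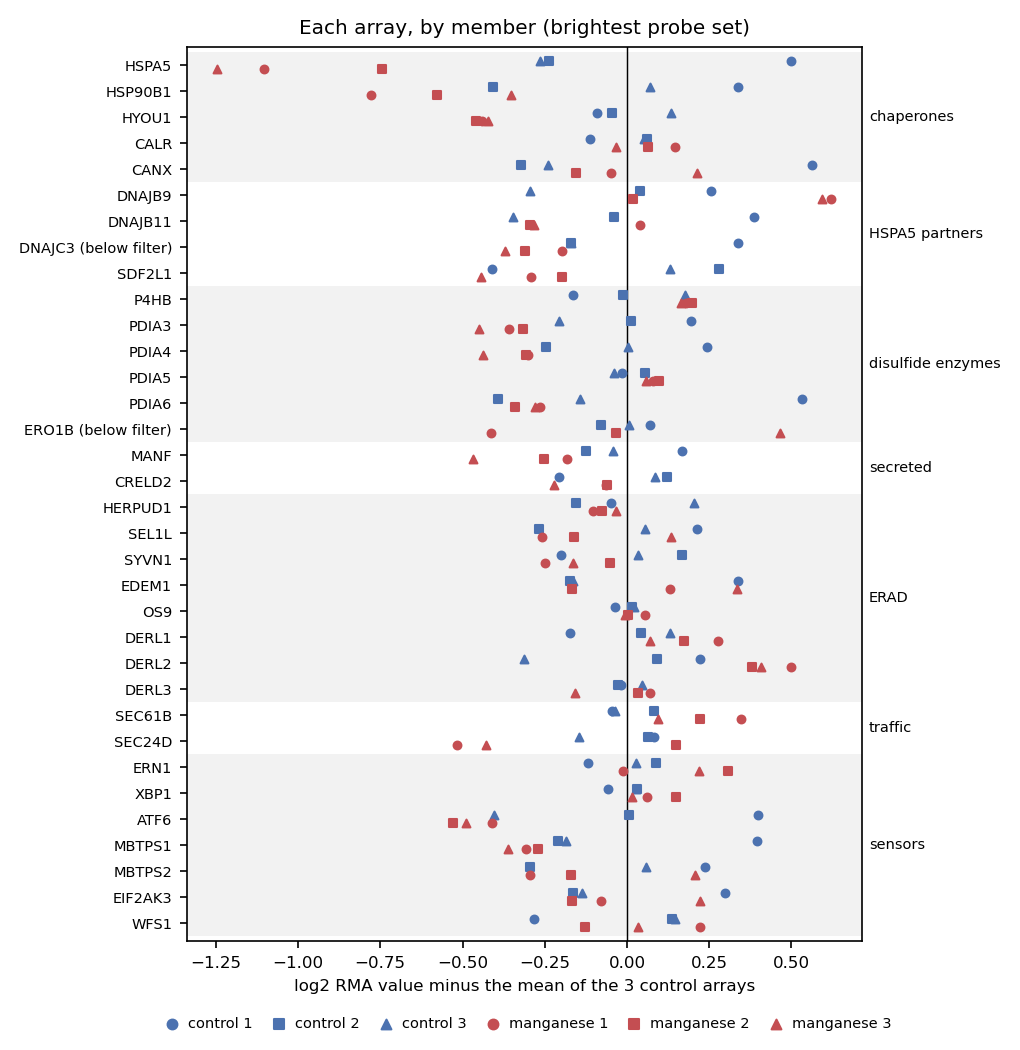
Log2 RMA value of each gene on each array minus the mean of the 3 control arrays (x axis), for the 34 genes in order of role (y axis), with controls in blue and manganese in red. For HSPA5, HYOU1, PDIA3, PDIA4, MANF, ATF6 and MBTPS1 all red points lie to the left of all blue points, and control 1 (blue circle) is the rightmost point for 14 of the 32 tested genes.

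Among the remaining chaperones, HSP90B1 and HYOU1 had lower means in manganese and the lectins CALR and CANX did not. HYOU1 (ORP150) is an Hsp110-like protein that releases nucleotide from HSPA5. It read 8.13, 8.18 and 8.36 in controls and 7.78, 7.76 and 7.80 in manganese. The groups did not overlap, and the manganese arrays were close together (SD 0.02). The difference was -0.44 (SE 0.11, limma adjusted p 0.198), or -0.40 against control 2, and over its 7 passing probe sets differences ran from -0.44 to -0.01.

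HSP90B1 (GRP94), the Hsp90 of the ER, read 10.30, 9.55 and 10.03 in controls and 9.18, 9.38 and 9.61 in manganese. Manganese 3 exceeded control 2, so the groups overlapped. The difference was -0.57 (SE 0.20, limma adjusted p 0.332) but -0.16 against control 2. Of its 5 other passing probe sets, 3 had non-overlapping groups with differences of -0.83, -0.68 and -0.49 (background 9.53% of probe sets). In the other 2 the groups overlapped, with differences of -0.17 and -0.16. All these probe sets read the same 6 samples.

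CANX (calnexin), the membrane-bound lectin chaperone of glycoproteins, read 10.78, 9.90 and 9.98 in controls and 10.17, 10.07 and 10.43 in manganese. Control 1 was the highest array and controls 2 and 3 were the lowest. The difference was 0.0029 (95% interval -0.54 to 0.54), or 0.33 against control 2. CALR (calreticulin), its soluble relative, differed by 0.06 (-0.19 to 0.31), with means of 6.53 ± 0.10 and 6.59 ± 0.09.

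DNAJB9 (ERdj4), a J-domain partner of HSPA5 that also restrains IRE1, read 6.91, 6.69 and 6.36 in controls and 7.28, 6.67 and 7.25 in manganese. Manganese 1 and 3 were above every control and manganese 2 was not. Its difference of 0.41 (SE 0.20, limma adjusted p 0.431) had the opposite sign to that of HSPA5, and was 0.37 against control 2 and 0.26 without control 3. DNAJB11 (ERdj3), a soluble J-domain cochaperone, differed by -0.18 (-0.63 to 0.27). SDF2L1, which binds DNAJB11 and helps to keep clients soluble, read 9.22, 9.91 and 9.76 in controls and 9.34, 9.43 and 9.19 in manganese. Here control 1 was the lowest control, unlike in HSPA5, and overlapped with manganese. The difference was -0.31 (SE 0.18), or -0.59 against control 2 and -0.17 without control 2. DNAJC3 (p58IPK), a cochaperone and inhibitor of PERK, had 3 probe sets that read between 2.78 and 3.71, under the 40th percentile of every array (4.37 to 4.40).

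The disulfide enzymes had differences of both signs. PDIA3 (ERp57), the isomerase that works with the lectins, read 8.89, 8.71 and 8.49 in controls and 8.34, 8.38 and 8.24 in manganese. The groups did not overlap, and the difference of -0.38 (SE 0.13, limma adjusted p 0.326) was -0.39 against control 2. PDIA4 (ERp72) read 11.32, 10.83 and 11.08 against 10.78, 10.77 and 10.64. Its groups did not overlap either, but control 2 lay close to the manganese arrays. The difference was -0.35 (SE 0.14), but -0.23 without control 1 and -0.10 against control 2.

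PDIA6 (P5), an isomerase that can act on IRE1, read 9.98, 9.06 and 9.31 in controls and 9.19, 9.11 and 9.17 in manganese. Control 1 was the highest array and control 2 the lowest, so the difference of -0.29 was 0.10 in the other direction against control 2. P4HB (PDI), the founding isomerase and a subunit of prolyl 4-hydroxylase, read 11.48, 11.63 and 11.82 against 11.82, 11.84 and 11.81. Its difference was 0.18 (-0.09 to 0.45), or 0.19 against control 2 and 0.10 without control 1. Its 6 probe sets gave 0.14 to 0.42, but 0.03 to 0.19 against control 2. Control 1 was the lowest array in each of them. PDIA5 differed by 0.08, with non-overlapping groups whose nearest arrays were 7.28 (control 2) and 7.29 (manganese 3). ERO1B, the oxidase that recharges the isomerases, had 4 probe sets that read between 2.47 and 3.92 and was not tested.

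MANF and CRELD2 are induced by ER stress and can be secreted. MANF, a neurotrophic factor that binds HSPA5, read 10.80, 10.51 and 10.59 in controls and 10.45, 10.38 and 10.17 in manganese. The groups did not overlap, but control 2 and manganese 1 were close. The difference was -0.30 (SE 0.13, limma adjusted p 0.384), or -0.18 against control 2. CRELD2 differed by -0.12 (-0.40 to 0.17).

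**Figure D3:**
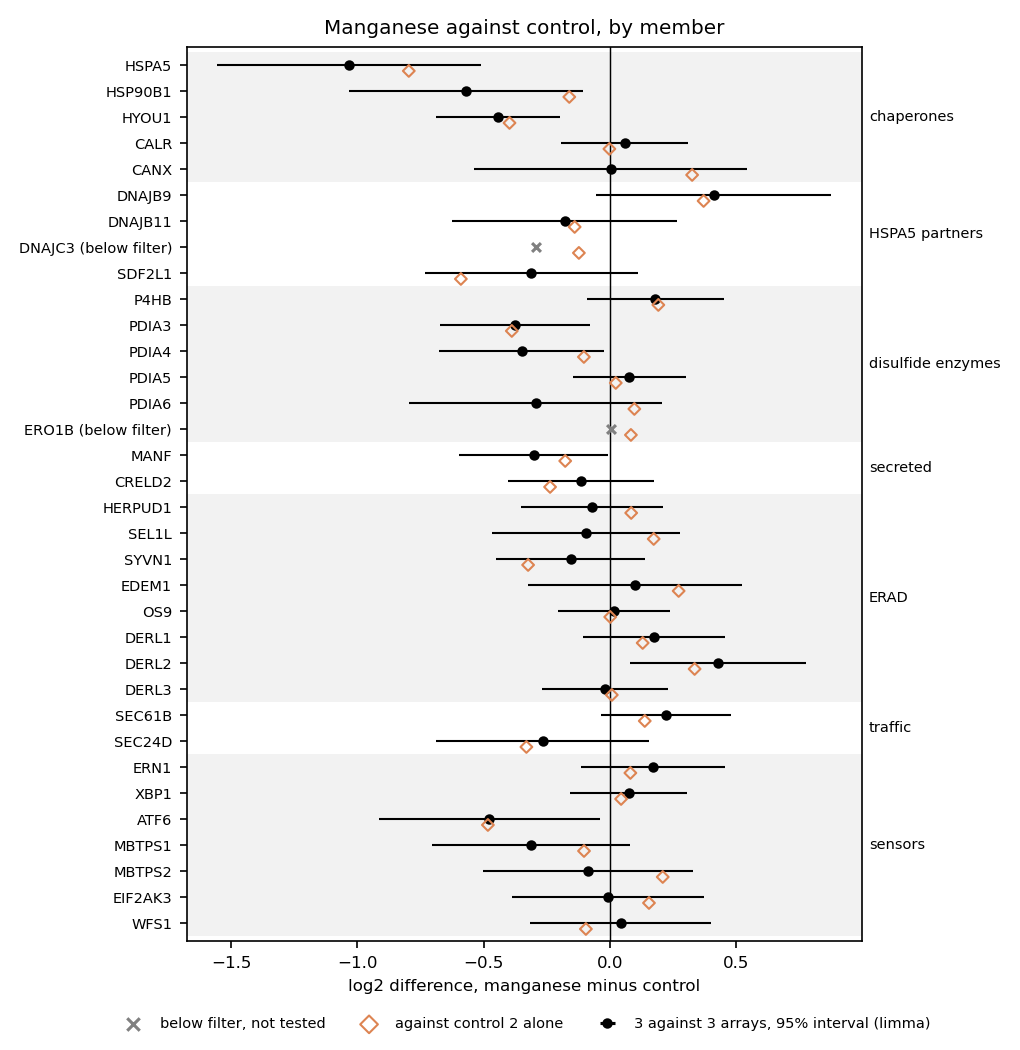
Log2 difference, manganese minus control, of each gene's brightest probe set (x axis) with its 95% interval from limma (black), and the difference from control 2 alone (orange diamonds); grey crosses mark DNAJC3 and ERO1B, which were not tested. HSPA5 lies farthest from 0 at -1.03, DERL2 at 0.43 is the highest, and the diamond is on the other side of 0 from the black point for CALR, PDIA6, HERPUD1, SEL1L, DERL3, MBTPS2, EIF2AK3 and WFS1.

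ERAD genes had small differences of both signs, 4 of 8 negative, as were 45.9% of all genes. The median of the 8 was -0.000405 (0.11 against control 2), and 0 passed the threshold. DERL2, a derlin that channels substrates out of the ER, read 8.55, 8.42 and 8.02 in controls and 8.83, 8.71 and 8.74 in manganese. All manganese arrays were above all controls, and control 3 was the lowest. The difference was 0.43 (SE 0.15, limma adjusted p 0.332), or 0.34 against control 2, and it was 0.27 without control 3. Its relatives DERL1 and DERL3 differed by 0.17 and -0.02, and the passing DERL1 probe sets ran from -0.17 to 0.17.

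HERPUD1, a membrane scaffold of the degradation complex and a strong target of the stress response, read 8.59, 8.48 and 8.84 in controls and 8.53, 8.56 and 8.60 in manganese. The groups overlapped, and the difference was -0.07 (-0.35 to 0.21) with 0.14 and 0.18 at its other passing probe sets. The ubiquitin ligase SYVN1 (HRD1) differed by -0.16 (-0.45 to 0.14) and its partner SEL1L by -0.09 (-0.47 to 0.28). EDEM1, which trims mannose from glycoproteins bound for degradation, differed by 0.10 (-0.33 to 0.52), and OS9, the lectin that reads the trimmed sugar, by 0.02 (-0.21 to 0.24). SEC61B, a subunit of the translocation channel, read 11.46, 11.59 and 11.47 against 11.86, 11.73 and 11.60, a difference of 0.22 (-0.04 to 0.48) whose groups touched without overlap at 11.59 and 11.60. SEC24D, a cargo adaptor of COPII vesicles, differed by -0.27 (-0.69 to 0.16), with manganese 2 as the highest array of all.

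Of the stress sensors, ATF6 had lower values in manganese, while ERN1 and EIF2AK3 overlapped between groups. ATF6 read 6.27, 5.88 and 5.47 in controls and 5.46, 5.34 and 5.38 in manganese. The groups did not overlap, but the controls were spread widely and control 3 lay just above manganese 1. The difference was -0.48 (SE 0.19, limma adjusted p 0.363), or -0.48 against control 2. It was -0.28 without control 1 and -0.68 without control 3. A dimmer probe set at -0.42 was above the 40th percentile on the control arrays only, so its sign was fixed by the filter. MBTPS1, the site-1 protease that makes the first cut in ATF6, read 8.83, 8.22 and 8.25 against 8.13, 8.16 and 8.07. Control 1 stood far above the others, and the difference of -0.31 (SE 0.17) was -0.12 without control 1 and -0.10 against control 2. MBTPS2, the site-2 protease, differed by -0.09 (-0.50 to 0.33).

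ERN1 read 4.34, 4.55 and 4.49 in controls and 4.45, 4.77 and 4.68 in manganese, close to the 40th percentile, and control 1 lay below it. The difference was 0.17 (-0.12 to 0.46). XBP1, the target of IRE1, read 8.09, 8.17 and 8.17 against 8.20, 8.29 and 8.16, a difference of 0.07 (-0.16 to 0.31). Manganese 3 lay under control 2, so the groups overlapped. The 1 XBP1 probe set gives total transcript and does not tell spliced from unspliced mRNA. EIF2AK3 differed by -0.0081 (-0.39 to 0.37), and WFS1, an ER membrane protein that regulates ATF6 turnover and calcium, by 0.04 (-0.32 to 0.40).

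Where a gene had several probe sets above the filter, they were compared with each other. This was so for 17 genes. In 9 all probe sets were negative (HSPA5, HSP90B1, HYOU1, PDIA3, PDIA4, PDIA6, SYVN1, SEC24D and ATF6), in 2 all were positive (P4HB and EDEM1) and in 6 the signs were mixed. The range exceeded 0.5 for HSPA5 and HSP90B1. The negative signs of 2 HSPA5 probe sets and 1 of the 2 for ATF6 count for nothing here, since these passed on the control arrays only, which leaves 3 for HSPA5 and 1 for ATF6.

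**Figure D4:**
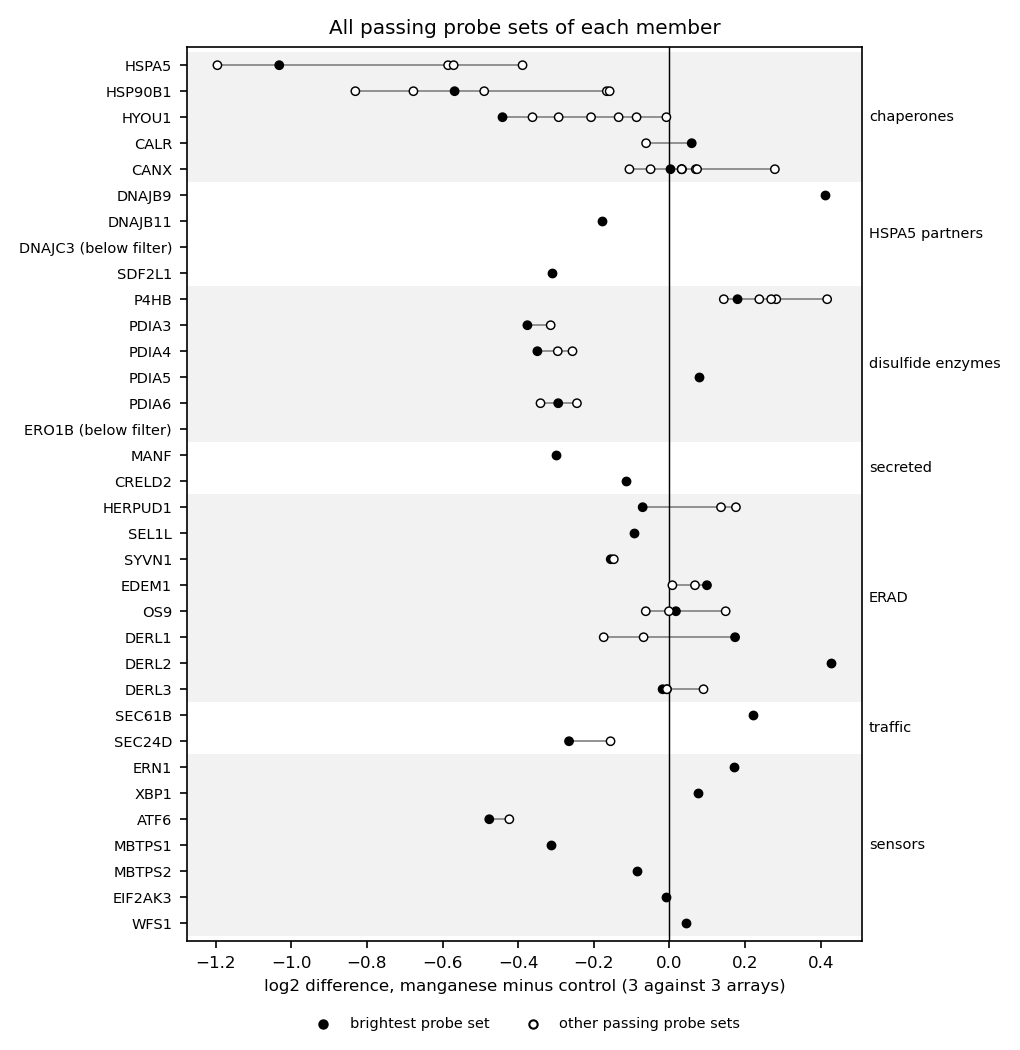
Log2 difference, manganese minus control, of every probe set above the filter (x axis), 81 in all, for each gene (y axis), with the brightest probe set filled. The 5 HSPA5 probe sets lie between -1.20 and -0.39, the 6 of HSP90B1 between -0.83 and -0.16 and the 6 of P4HB between 0.14 and 0.42.

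The stress element shown for HSPA5, known as ERSE, was then looked for in the promoters of all 34 genes, of which 30 matched the RefSeq table of windows from 250 bases before the start (PDIA3, DERL1, DERL3 and SEC24D did not). It was in 0.0769% of all 35116 promoters of the same length and in those of 8 of the 30 genes. The 30 genes have 36 promoters, so a share of promoters and a count of genes are unlike units. The genes were also chosen as folding and stress genes, so this contrast is not a result of the expression data. The related ERSE-II, searched on both strands as ATTGG, 1 base of any kind, then CCACG, was in 0.0541% of all promoters and in those of 3 genes. UPRE (TGACGTGG), in 0.729% of promoters, was found in 1 of the 30, HYOU1, where it overlaps an ERSE-II copy. The sites below are shown with the element in capitals, to set genes with lower means in manganese beside genes with differences near 0. They are GRCh38.p14 sequences along the strand of the gene (minus for HYOU1 and XBP1, plus for the others), so a reversed copy begins with CGTGG.
HSP90B1, chr12:103930211-103930239: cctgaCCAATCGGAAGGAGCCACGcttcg
HSP90B1, chr12:103930316-103930344: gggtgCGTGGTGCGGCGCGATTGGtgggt
HYOU1, chr11:119057375-119057395: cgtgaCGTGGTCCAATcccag
HYOU1, chr11:119057269-119057289: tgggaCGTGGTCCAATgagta
SDF2L1, chr22:21642109-21642129: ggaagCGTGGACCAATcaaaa
HERPUD1, chr16:56932020-56932040: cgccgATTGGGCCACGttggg
CALR, chr19:12938379-12938407: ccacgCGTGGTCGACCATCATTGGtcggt
CANX, chr5:179698773-179698801: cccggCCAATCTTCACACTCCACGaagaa
XBP1, chr22:28800598-28800626: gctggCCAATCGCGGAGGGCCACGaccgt
HSPA5 at -1.03, HSP90B1 at -0.57, HYOU1 at -0.44 and SDF2L1 at -0.31 hold such an element, and so do HERPUD1 at -0.07, CANX at 0.0029, CALR at 0.06 and XBP1 at 0.07. PDIA6 and CRELD2 complete the 10 tested genes with an ERSE or ERSE-II. The 10 had a median difference of -0.20 (-0.08 against control 2) with 7 negative, beside 45.9% of all genes. The 18 tested genes with a promoter and neither element had a median of 0.0045 (0.05 against control 2) with 9 negative. Non-overlapping groups with manganese lower were seen in 2 of the 10 and in 4 of the 18 (background 9.26%). The 4 were PDIA4, MANF, ATF6 and MBTPS1. With manganese higher there were 0 of the 10 and 3 of the 18 (background 10.5%). The split into 10 and 18 genes depends on the exact match. With 1 mismatch allowed, a setting chosen after seeing the data, ERSE was in 1.55% of all promoters and in those of 15 of the 30 genes, SEL1L, SYVN1 and WFS1 included. The 13 tested genes with either element then had a median of -0.12 (-0.095 against control 2) with 9 negative, and the 15 with neither 0.02 (0.08 against control 2) with 7 negative. No test was made of these descriptions, and a match to the letters does not show that a factor binds there.

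**Figure D5:**
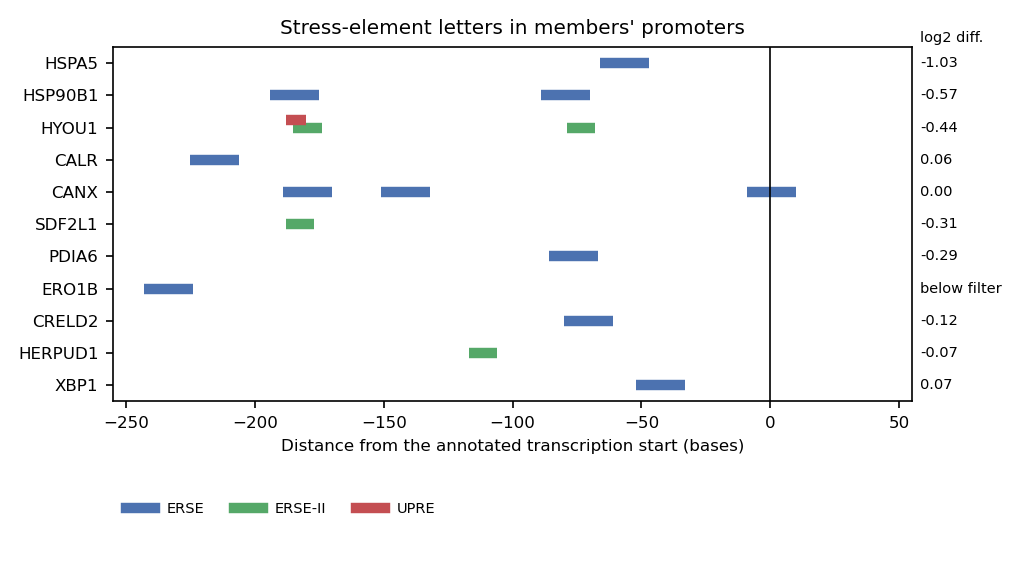
Position of ERSE (blue), ERSE-II (green) and UPRE (red) letters relative to the annotated transcription start (x axis, bases), for the 11 genes that hold any of them (y axis), with the log2 difference of manganese minus control at the right. The single CANX site is drawn once for each of the 3 annotated starts it precedes, and genes with an element span differences from -1.03 to 0.07.

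Other genes of the secretory pathway were read from 7 lists, of which 120 of 126 genes were tested and 0 passed the threshold. At an unadjusted p under 0.05, 8 were higher and 11 lower (background 5.97% and 6.85%), and the median was -0.0088 (0.04 against control 2). Among 28 other folding and disulfide factors the median was -0.02. TXNDC12 (ERp18), a small thioredoxin-like oxidoreductase, read 7.97, 7.04 and 7.19 in controls and 6.69, 6.61 and 6.61 in manganese, a difference of -0.76 that was -0.40 against control 2. The membrane oxidoreductase TMX1 differed by 0.38 (0.52 against control 2). ERO1A, the widely expressed relative of ERO1B, differed by 0.53 (-0.06 to 1.11), or 0.50 against control 2. TXNDC12 was also past the threshold with housekeeping centring.

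The translocon and targeting list of 24 genes had a median of -0.06 (0.04 against control 2). SRPRB, a subunit of the signal recognition particle receptor, differed by -0.40 (-0.33 against control 2). SRP14, an RNA-binding protein of that particle, differed by -0.66 (-0.39 against control 2). The 25 other ERAD factors had a median of 0.04, with TMUB1 at 0.43 and UBXN4 at -0.40. Against control 2 these 2 genes differed by 0.15 and -0.12. For the 16 N-glycosylation genes the median was -0.03. The glucosidase II subunit GANAB differed by -0.25 (-0.07 against control 2). The oligosaccharyltransferase subunit STT3B differed by 0.36 (0.54 against control 2). In the COPII coat list, 8 of 13 genes were negative, beside 45.9% of all genes. The median was -0.15, but 0.04 against control 2. SEC24B differed by -0.65 (-0.46 against control 2) and SEC16A by -0.36 (-0.19 against control 2).

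In the PERK arm, 6 of 7 genes had positive differences, as had 7259 of all 13407 genes, with a median of 0.13 (0.28 against control 2) and 0 past the threshold. CHAC1, a glutathione-degrading enzyme induced through ATF4, read 8.30, 8.45 and 8.77 in controls and 9.50, 9.29 and 9.15 in manganese. ATF4 itself read 11.10, 11.29 and 11.31 against 11.48, 11.60 and 11.64. All manganese arrays were above all controls for both genes (background 10.5%), which are the 2 of the list with the smallest p. Their differences were 0.81 (limma adjusted p 0.138) and 0.34 (limma adjusted p 0.304), or 0.86 and 0.28 against control 2. DDIT3 (CHOP) differed by only 0.10. The groups overlapped for DDIT3 and for the other 4, ASNS at 0.18, TRIB3 at 0.13 (-0.12 against control 2), PPP1R15A at 0.03 and PPP1R15B at -0.07. With housekeeping centring CHAC1 was past the threshold. Of 7 other stress regulators, CREB3L4 differed by 0.25 (0.11 against control 2) and CREB3 by 0.28 (0.0058 against control 2). ATF6B, the paralog of ATF6, differed by 0.01 (-0.30 to 0.32), or -0.12 against control 2.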

How the data were processed

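The authors deposited log2 expression values of 49395 probe sets on 6 one-colour Affymetrix arrays. Per the submitters' processing notes the tools were Affymetrix Expression Console and RMA. RMA subtracts background, gives all arrays one intensity distribution and summarizes probes, so a shift shared by most genes is removed. Tool versions, scan dates and a genome build were not given in the sources used here. Biotin-labelled cRNA came from 6 µg of total RNA per the labels.

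Gene names came from the platform annotation, and probe sets with several symbols were left out. Probe sets above the 40th percentile of their array on at least 3 arrays were kept (29871, and 27411 with 1 gene), and the brightest stood for each of 13407 genes. Groups were compared with limma 3.58.1 in R 4.3.3 (lmFit, eBayes, group as the only term, two-sided). Benjamini-Hochberg adjustment ran over all genes tested, or over all 27411 probe sets for HSPA5 probe sets, with a threshold of 0.05. The scripts were tested on simulated data. Arrays have no counting depth, so their number limits precision.

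The genes, lists and alternatives were chosen with earlier results of these data known. All 34 genes are named, and from each further list the 2 genes with the smallest p, plus ATF4, DDIT3, ATF6B and ERO1A. Deviations of same-numbered arrays from their group means correlated at r = -0.30, 0.15 and -0.27. Centring within 3 arrays ties these values to each other, so they cannot exclude pairing. The labels do not give pairs, and the numbers were not taken as pairs. Alternatives changed the filter, variance model, array weights, centring, probe set rule, replicate block and arrays used.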

Additional observations from a re-analysis of the deposited data

How the results depend on the processing

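The count of 0 genes past the threshold was the same with no filter (34 genes tested), the 60th percentile filter (29 tested, without ERN1, ATF6 and EIF2AK3) and, for all 32, a trended robust variance, median centring, the mean of passing probe sets, the replicate block, control 2 alone and each array left out. It was 1 (HSPA5) with housekeeping centring, and 10 with array weights, a fit that did not converge and weighted control 3 at 8.22 and control 1 at 0.15. In the same 2 settings 2 and 5 HSPA5 probe sets and 2 and 48 genes of the further lists passed. Over all genes the count of 19 became 50 with median centring, 303 with housekeeping centring, 3945 with array weights, 6 with the replicate block and 5 against control 2, and lay between 0 and 43 with an array left out (0 without control 3 or any manganese array, 43 without control 2). The pairing by number is not given by the labels, and the replicate block changed no call among the 32. HSPA5 kept its sign in all 15 alternatives (-1.18 to -0.70), as did HYOU1 (-0.57 to -0.22). Both had non-overlapping groups, so leaving out or weighting arrays could not turn these signs. The changes of filter, variance model and block left both differences as they were. The median of the 32 lay between -0.12 and -0.01 with an array left out.

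The sign of a difference turned under some settings in 13 genes, all with intervals that include 0. Against control 2 alone these were CALR (-0.0017), PDIA6 (0.10), HERPUD1 (0.085), SEL1L (0.17), DERL3 (0.0079), MBTPS2 (0.21), EIF2AK3 (0.16) and WFS1 (-0.095). With the mean of passing probe sets they were CALR (-0.0014), HERPUD1 (0.081), DERL1 (-0.023) and DERL3 (0.015), and with array weights DNAJB11 (0.13), OS9 (-0.0032), EIF2AK3 (0.061) and WFS1 (-0.13). Median centring turned DERL3 (0.0060) and EIF2AK3 (0.016), and housekeeping centring EIF2AK3 (2.49e-05). With 1 array left out the ranges were -0.16 to 0.28 for CANX, -0.35 to 0.014 for DNAJB11, -0.15 to 0.031 for HERPUD1, -0.23 to 0.012 for SEL1L, -0.018 to 0.27 for EDEM1, -0.0015 to 0.028 for OS9, -0.063 to 0.052 for DERL3, -0.23 to 0.032 for MBTPS2, -0.12 to 0.14 for EIF2AK3 and -0.10 to 0.13 for WFS1. The cause was not tested. With 3 arrays a group, the 95% intervals of 24 of the 32 genes include 0.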
